A study of Mus musculus with 11 samples.

Results

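Wild-type (WT) skin fibroblasts were compared between unwounded back skin (normal skin, NS) and full-thickness excisional wounds taken at day 5 after injury (5dw). Of the 11 libraries of the series, 6 entered the comparison: 3 of WT NS fibroblasts and 3 of WT 5dw fibroblasts. All mice were female, 9 to 12 weeks old and of a mixed background (50% CD-1, 50% C57Bl/6), and were the WT littermates of Act mice, which carry an activin A transgene under the keratin 14 promoter. The WT mice carried no transgene. The poly-A RNA behind each library came from 3 mice combined over several sorts, with 100 ng of RNA for NS and 200 ng for 5dw, so the RNA input changed with the wound and cannot be told apart from it. Differences between groups were measured against the spread between pools, not between single mice. Live cells were sorted as CD45-CD140a+ (CD140a is PDGFRA), with CD11b and F4/80 as further negative markers. The sample labels name CD3 as a negative marker too, whereas the antibodies in the methods of the study do not include it. The 6 libraries were compared across all genes with an RPKM (read count scaled by transcript length and mapped depth) of at least 1 in at least 2 of them, which left 11633 of 47643 gene symbols.

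In intact dermis, fibroblasts are mostly quiescent and maintain a mature collagen matrix. After injury they proliferate, migrate into the wound, release chemokines and growth factors, and deposit the granulation tissue matrix, and some become contractile myofibroblasts. Day 5 of a mouse excisional wound falls in the phase in which granulation tissue forms.

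The mapped totals recovered from the values were 18649321 to 29718956 reads in WT NS and 38740404 to 39702138 in WT 5dw. By these recovered totals the wound libraries were the deeper ones. The 5dw totals lie above the approximate number of reads per sample given in the methods of the study, a difference that was not resolved. Collagen genes alone made up 2.60 to 4.62% of the summed RPKM of an NS library and 8.76 to 10.6% of that of a 5dw library, and RPKM values were divided by 1 median-ratio factor per library, so that all levels below are scaled RPKM. Fold changes are differences of log2(scaled RPKM + 0.5), 5dw minus NS, a scale that understates the change of genes near 0. Without this scaling the median log2 fold change of all tested genes was -0.40, and with it -0.003. The first principal component took 80.1% of the variance and separated the groups, with NS libraries at -49.9 to -44.7 and 5dw libraries at 44.7 to 50.8.

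The sort was checked against its own antigens and against markers of other cells. Pdgfra, the gene of the sorted antigen, stood at 45.4, 45.2 and 52.5 in NS and 43.2, 40.2 and 42.4 in 5dw, a difference that did not pass the test (log2 fold change -0.18, limma adjusted p = 0.222), although it was called lower without scaling (-0.63, limma adjusted p = 0.00464). Of 14 fibroblast markers, all tested, 5 rose and 3 fell (median 0.27, or -0.19 with 4 higher and 6 lower without scaling). Ptprc (CD45) and Adgre1 (F4/80) stayed at or under 0.0459 and 0.140 in every library. CD11b is listed as a pair of gene models, of which Itgam_1 stayed at or under 0.0930 and Itgam_2 rose from 0.316, 0.556 and 0.225 to 2.11, 1.65 and 1.74 (log2 fold change 1.44). Cd3e, of the CD3 that only the labels name, was well above the genes of the other negative markers, at 2.89, 15.7 and 6.15 in NS and 92.0, 122 and 87.3 in 5dw (log2 fold change 3.81, SE 0.50). Cd3d, Cd3g and Lck, other genes of the T cell receptor complex and its signalling, were too low to be tested and lay higher in every 5dw library than in any NS library, with Cd3d at 0, 0.180 and 0.0205 in NS and 0.707, 0.548 and 0.760 in 5dw, and highest values of 0.313 for Cd3g and 0.379 for Lck. Of 10 T cell markers, 3 were tested, Cd3e rose, and Trbc2, a T cell receptor chain, fell from 3.09, 3.72 and 3.17 to 0.338, 0.480 and 1.32. Cd4 reached at most 1.54 and did not pass the test (log2 fold change 0.61, limma adjusted p = 0.0552), but did so with quantile normalization (limma adjusted p = 0.0189) and under 4 other settings. The T cell genes other than Cd3e and Trbc2, like Lyz2, Cd68, C1qa, C1qb, C1qc, Mrc1 and Ms4a7 below, were named after their values were seen. Of 12 macrophage and monocyte markers, 4 were tested and 2 rose, Cd14 (log2 fold change 2.33) and Csf1r (1.10), with a summed list level of 10.5 to 17.9 in NS and 28.0 to 34.4 in 5dw. The other tested members did not pass the test. Lyz2 was at 0.982, 2.45 and 0.770 in NS and 2.38, 4.68 and 1.52 in 5dw (log2 fold change 0.81, limma adjusted p = 0.150), but was called with the replicate number as a block (limma adjusted p = 0.0046) and without the second NS library (0.0468). Cd68 was at 10.5, 6.26 and 4.95 in NS and 7.32, 6.85 and 7.17 in 5dw, with overlapping groups. Members too low to be tested included C1qa, at 0.0996, 0.367 and 0.208 in NS and 0.393, 0.494 and 0.468 in 5dw, Adgre1, whose protein was a negative marker of the sort, and Ccr2, which reached at most 0.0448. The groups overlapped for C1qb, at 0.254, 0.395 and 0.149 in NS and 0.0806, 0.777 and 0.308 in 5dw. They also overlapped for C1qc, Mrc1 and Ms4a7. Neutrophil markers summed to 0.445 to 1.27 in NS and 5.19 to 26.0 in 5dw, with 2 of 10 tested and S100a9 higher. S100a9 gave 4.14, 2.95 and 19.1 of the 5dw sums, and the members too low to be tested reached at most 0.362. General leukocyte markers summed to 12.4 to 14.9 in NS and 15.6 to 16.2 in 5dw. Of these 10 markers, 1 was tested, and it was not called with scaling and was lower without it. Of 10 dendritic and Langerhans cell markers, 5 were tested, 1 rose and 2 fell, and of 12 skeletal muscle and 7 mast cell markers 1 and 0 were tested. The part of these cells in other differences was not tested.

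Keratinocyte transcripts were present in both groups and moved with the wound. Of 18 keratinocyte markers, all tested, 12 were lower in 5dw and 1, Krt6a, was higher, with a list median of -2.34, and their summed level was 1257, 2169 and 2161 in NS and 226, 461 and 1940.1 in 5dw. The third 5dw library thus stood within the range of the NS libraries, and the other two lay below all of them. Without it, 16 of the markers were lower and 1 higher (median -2.96), and 3705 genes were called over the whole table, 1863 higher and 1842 lower. Krt10, a keratin of differentiating epidermis, was at 258, 592 and 635 in NS and 10.8, 14.4 and 37.7 in 5dw. Krt6a, a keratin found in wounded epidermis, was at 7.27, 9.83 and 5.23 in NS and 31.2, 72.0 and 313 in 5dw, and it remained called without the third library (log2 fold change 2.64, limma adjusted p = 0.00251). S100a9, a calprotectin subunit of neutrophils and wounded epidermis, was also highest there, at 4.14, 2.95 and 19.1 in 5dw. How far these transcripts contributed to other differences was not tested. In bulk RNA, fewer cells of a type and less RNA per cell cannot be told apart. Smaller sets of other markers also fell: Hba-a1 and the other 3 tested haemoglobin genes, and 3 of 5 tested Schwann cell and melanocyte markers. Among 12 endothelial markers, 4 were tested, Pecam1 rose (1.82) and Tek fell (-1.51), with 2 lower without scaling or with the replicate number as a block, and the summed level was 41.6 to 56.9 in NS and 36.1 to 40.8 in 5dw.

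The transcriptomes of the sorted NS and 5dw cells differed broadly. With limma and a Benjamini-Hochberg adjusted p under 0.05, 4963 of 11633 tested genes were differentially expressed (DEGs, 42.7%), of which 2488 (21.4%) were higher and 2475 (21.3%) lower in 5dw. A log2 fold change of at least 1 was reached by 886 higher DEGs (7.62%) and 946 lower DEGs (8.13%). The values of the 2 groups did not overlap for 6605 genes (56.8%). The even split is set by the scaling: without it, 1135 genes were called higher and 5696 lower. With the replicate number as a further term in the fit, a replicate block, 4906 genes were called, and for the gene lists below the unscaled and blocked counts stand beside the others where they differ by over 1.5 times. Beyond a log2 fold change of 4 there were 21 DEGs up and 22 down, and beyond 6 there were 5 up and 1 down. The shares called varied with level. Among the 2327 tested genes with the lowest mean levels, up to 1.70, 14.4% were higher and 32.3% lower. Among the 2327 with the highest, from 14.5, 37.0% were higher and 12.5% lower. The shares of all tested genes set beside the lists below are not matched for level.

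**Figure D1:**
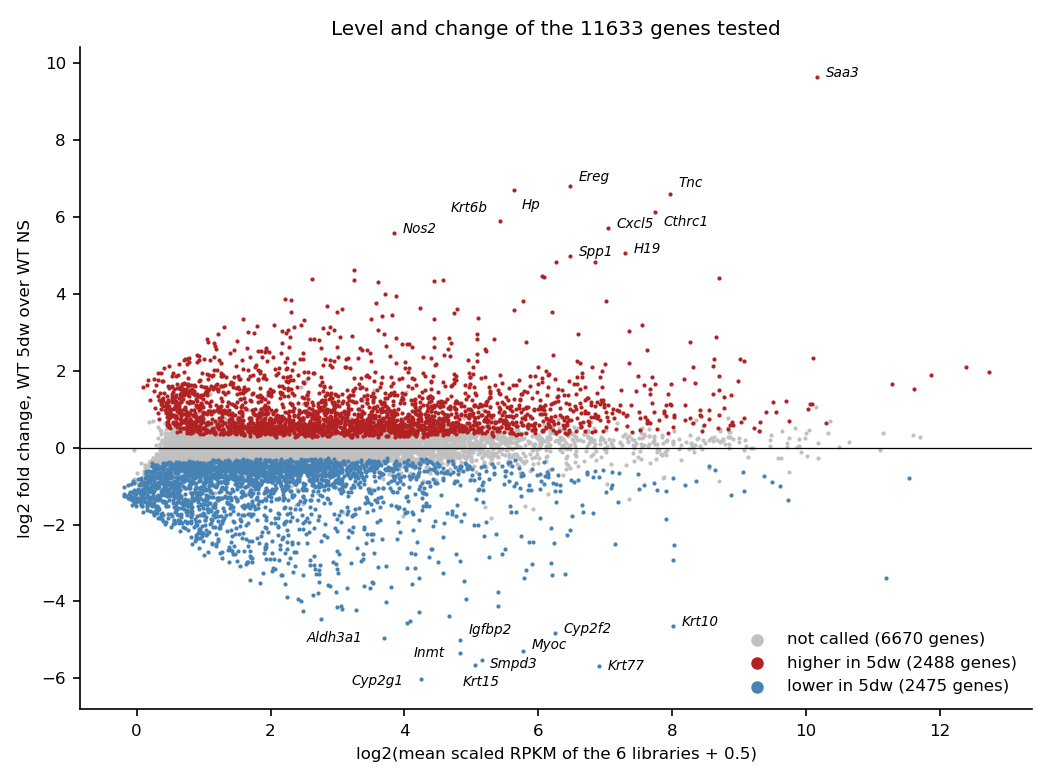
Each point is a gene, with the log2 of its mean scaled RPKM over the 6 libraries plus 0.5 on the x axis and the log2 fold change of WT 5dw over WT NS on the y axis, and with the 2488 DEGs higher in 5dw in red, the 2475 lower in blue and the other genes in grey. The labels mark the 10 genes at each end of the log2 fold change, and Saa3 stands apart at 9.64 and at a high mean level.

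The 10 genes with the highest log2 fold changes among DEGs without overlap included acute-phase, matrix and epithelial-signalling genes. Saa3, serum amyloid A3, an acute-phase protein (chr7:46711998-46715700, minus strand, GRCm38), was at 1.11, 6.02 and 1.73 in NS and 2039, 2119.7 and 2739 in 5dw, so that all wound libraries lay far above all NS libraries (log2 fold change 9.64, SE 0.47, limma adjusted p = 2.45e-05). Hp, haptoglobin, which binds free haemoglobin, went from 0.309, 0.355 and 0.645 to 92.3, 78.1 and 123. The gene of epiregulin, an EGF receptor ligand, Ereg, stood at 0.427, 1.51 and 1.54 in NS and 176, 156 and 198 in 5dw, with a log2 fold change of 6.82 and an SE of 0.30. The lowest wound library of each of these genes lay far above its highest NS library.

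Tnc encodes tenascin-C, a matrix glycoprotein of healing tissue, and its levels were 7.67, 4.02 and 2.96 in NS and 529.5, 392 and 569.9 in 5dw (log2 fold change 6.61). Cthrc1, a secreted collagen triple helix repeat protein, was at 8.0, 6.58 and 3.04 in NS and 419, 452 and 394 in 5dw (log2 fold change 6.14). Spp1, the gene of osteopontin, had a log2 fold change of 4.99, and the 5dw values were 161, 143 and 214. The inducible nitric oxide synthase gene Nos2 was at or under 0.110 in NS and at 24.7, 24.1 and 34.6 in 5dw (log2 fold change 5.59). H19, a maternally expressed imprinted long non-coding RNA, rose from 10.4, 8.33 and 7.27 to 273, 362 and 280.1 (log2 fold change 5.06). The 3 wound libraries lay close together for all of these genes. Krt6b, a keratin with a near-identical copy in Krt6a, differed from them: it was at 0.155, 0.729 and 0.450 in NS and 18.8, 43.7 and 193 in 5dw, and its log2 fold change of 5.91 (SE 0.74) was 5.03 (SE 0.39) without the third 5dw library.

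Among the 10 genes with the lowest log2 fold changes, 3 were keratins and several others were enzymes of small-molecule metabolism. Cyp2g1, a cytochrome P450, was at 20.4, 48.5 and 41.5 in NS and 0.0409, 0 and 0.0852 in 5dw (log2 fold change -6.02, SE 0.30). Inmt, an N-methyltransferase, had the smallest spread within NS on the log2 scale, at 55.9, 53.6 and 55.5 in NS and 0.712, 0.869 and 1.08 in 5dw (log2 fold change -5.33, SE 0.12, limma adjusted p = 1.86e-06). The cytochrome P450 gene Cyp2f2 fell by 4.82 on the log2 scale and the aldehyde dehydrogenase gene Aldh3a1 by 4.96. Myoc, the gene of the extracellular glycoprotein myocilin, was at 127, 105 and 85.3 in NS and 1.56, 3.09 and 2.16 in 5dw. Igfbp2, an IGF-binding protein, had the widest spread within NS on the log2 scale, at 112, 21.1 and 32.1, and was at 0.506, 0.801 and 1.32 in 5dw. Smpd3, a neutral sphingomyelinase, fell by 5.52. The keratins Krt77, Krt15 and Krt10 fell by 5.67, 5.66 and 4.63, together with the keratinocyte marker list given above.

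**Figure D2:**
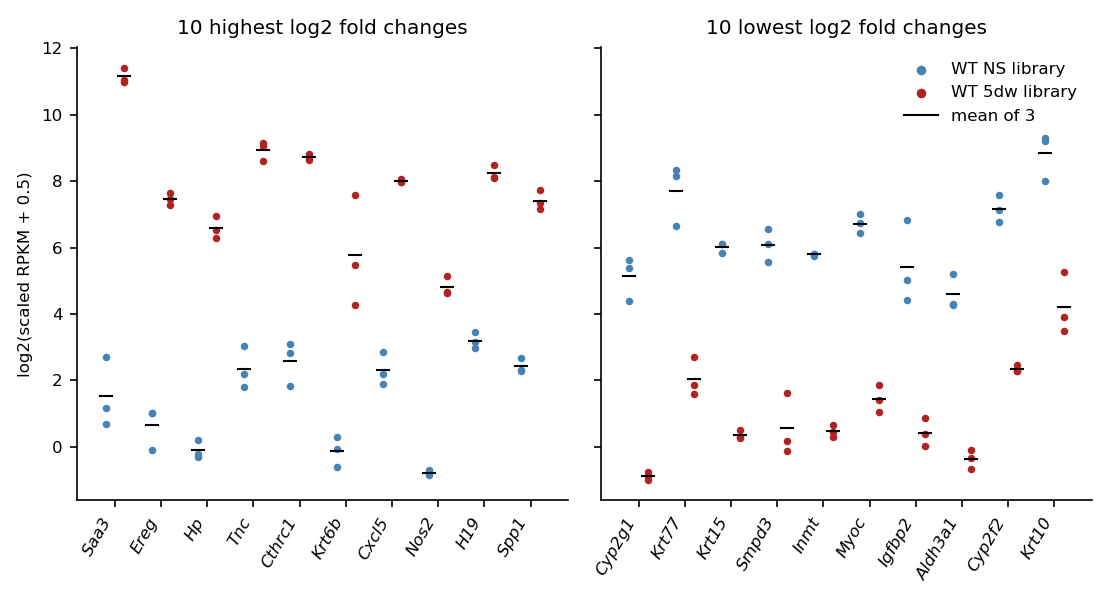
Points are the single libraries of WT NS (blue) and WT 5dw (red) and the black bar is the mean of 3, on a scale of log2(scaled RPKM + 0.5), for 10 genes at the upper (left) and 10 at the lower (right) end of the log2 fold change. No red point overlaps a blue point of the same gene, and the wound libraries spread most on this scale for Krt6b, from 18.8 to 193 scaled RPKM.

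Chemokines of the CXC class, which mainly draw neutrophils, were mostly higher in the wound. Of 10 tested CXC chemokines, 7 rose and 1 fell (log2 fold change median 1.53, or 1.08 with 6 higher and 2 lower without scaling, and 7 higher and 2 lower with the replicate block), beside a median of -0.003 for all genes. Cxcl5 was at 3.19, 6.66 and 4.07 in NS and 267, 253 and 253 in 5dw (log2 fold change 5.71), and Cxcl3 at 3.33, 9.25 and 4.37 in NS and 107, 163 and 110 in 5dw (4.46). Cxcl1, already abundant before wounding at 928, 1809 and 972, reached 3232, 4633 and 3463 and was among the 5 DEGs with the largest gain of scaled RPKM (log2 fold change 1.66, SE 0.30). The member that fell was Cxcl13, a B cell chemokine, from 62.9, 102 and 72.0 to 3.05, 4.52 and 4.42 (log2 fold change -4.13).

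CC chemokines, which mostly act on monocytes and lymphocytes, were split. Of 9 tested, 3 rose and 3 fell, and the list median was -1.05. Ccl8, a monocyte chemokine, rose from 40.3, 55.3 and 30.4 to 129, 152 and 162. Ccl19, a ligand of CCR7, fell from 37.8, 24.9 and 37.4 to 2.73, 2.65 and 2.70 (log2 fold change -3.38). Ccl2, the most abundant member, ranged from 412 to 1388 in NS and from 1258 to 1813 in 5dw, the groups overlapped, and the difference did not pass the test (log2 fold change 1.07, limma adjusted p = 0.0778, against 0.024 with the replicate block and 0.00384 without the second NS library).

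Other cytokines moved both ways. Of 16 tested cytokine genes, 8 rose and 5 fell (median 0.63). Csf3, the granulocyte colony-stimulating factor gene, was at 1.03, 1.96 and 0.977 in NS and 25.2, 26.8 and 28.7 in 5dw, and Il11, a cytokine of the IL-6 family, at 1.36, 1.23 and 0.834 and 11.7, 12.0 and 13.2. The log2 fold changes were 3.95 and 2.98. Csf1, the macrophage colony-stimulating factor gene, fell from 100.3, 195 and 153 to 45.6, 51.0 and 56.2, and Il1rn, the IL-1 receptor antagonist gene, fell by 1.87. Il6 was the most abundant member, at 222, 510.2 and 214 in NS and 259, 494 and 315 in 5dw, and its groups overlapped (log2 fold change 0.25, -0.21 without scaling, limma adjusted p = 0.63). On the receptor side, 5 rose and 5 fell among 24 tested (median 0.20, or -0.22 with 2 higher and 8 lower without scaling), a share of 20.8% in each direction that is near the 21.4% and 21.3% of all tested genes. Il1rl1, the IL-33 receptor gene ST2, rose from 2.45, 11.1 and 3.68 to 150.3, 161 and 132 (log2 fold change 4.82), and Il13ra2, a decoy receptor for IL-13, rose by 3.20. Il1r2, a decoy receptor for IL-1, fell from 90.8, 109 and 102 to 8.93, 14.2 and 9.21, and Il6ra fell by 1.30.

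Acute-phase and antimicrobial genes shifted upward beyond Saa3 and Hp. Of 11 tested, 7 rose and 1 fell (median 1.89, or 1.61 with 7 higher and 2 lower without scaling). Lcn2, lipocalin-2, which binds bacterial siderophores, was at 0.237, 0.164 and 0.227 in NS and 14.9, 12.3 and 25.9 in 5dw (log2 fold change 4.61). Orm1, the gene of the plasma protein orosomucoid, fell by 1.92. Complement genes were more often lower, with 2 higher and 6 lower of 15 tested (median -0.10, or -0.53 with 2 higher and 10 lower without scaling), although Cfb (complement factor B) rose from 61.8, 60.3 and 49.7 to 211, 324 and 269.8 and Cfi (factor I) by 1.46. C7, of the membrane attack complex, fell by 2.47 and Masp1, a lectin pathway protease, by 1.35. Of 14 prostaglandin genes, 2 rose and 4 fell (median -0.43, or -0.79 with 2 higher and 10 lower without scaling, and 2 higher and 7 lower with the replicate block). Ptgs2, which encodes the cyclooxygenase COX-2, rose from 80.0, 135 and 72.2 to 256, 301 and 303, and Ptgis, prostacyclin synthase, from 8.58, 7.03 and 7.06 to 34.0, 39.5 and 33.6, and the prostaglandin F receptor gene Ptgfr fell by 1.24.

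Growth factors signal between fibroblasts, epidermis and vessels. Of 25 tested ligands, 10 rose and 5 fell (median 0.39, or -0.05 with 7 higher and 7 lower without scaling), and of 18 tested receptors, 2 rose and 8 fell (median -0.20, or -0.62 with 1 higher and 11 lower without scaling). After Ereg, the ErbB ligand neuregulin 1 (Nrg1) had the largest rise, from 0.141, 0.173 and 0.0983 to 2.89, 1.81 and 3.31. Fgf2, basic fibroblast growth factor, fell from 2.72, 4.44 and 2.80 to 0.231, 1.09 and 0.522. Gas6, a ligand of the TAM receptors, fell from 211, 287 and 654 to 93.9, 90.4 and 97.5, with the 5dw libraries close together and the third NS library well above the others. The receptor genes that fell most were Fgfr4 (by 2.91) and Erbb3 (by 1.97). The receptor genes that rose were Igf2r (log2 fold change 1.34) and Fgfr1 (0.56), and Fgfr1 was not called without scaling (0.11, limma adjusted p = 0.458), with quantile normalization (0.106) or without the third 5dw library (limma adjusted p = 0.0505).

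IGF-binding proteins, which control access of IGFs to their receptor, and secreted Wnt antagonists were more often lower than higher. All 6 tested IGF-binding protein genes were called, 2 rose and 4 fell (median -1.31, or -1.77 with 0 higher and 4 lower without scaling, and 1 higher and 4 lower with the replicate block), and the list made up 0.736% ± 0.108 (SD, n = 3) of the summed RPKM in NS and 0.328% ± 0.0315 (SD, n = 3) in 5dw. Igfbp5 was at 589, 416 and 319 in NS and 64.8, 128 and 47.2 in 5dw (log2 fold change -2.54), and Igfbp6, the most abundant member, at 610.1, 617 and 747 and 277, 355 and 223 (log2 fold change -1.22). Of 9 tested Wnt antagonists, 2 rose and 5 fell (median -2.09). Wif1 fell from 10.5, 25.1 and 12.4 to 0.686, 1.02 and 0.489, and Notum, an enzyme that inactivates Wnt proteins, by 2.77. In contrast Sfrp2, a secreted frizzled-related protein gene, rose from 57.5, 29.4 and 28.2 to 356, 353 and 299.6 (log2 fold change 3.19), and Dkk3 rose by 1.92.

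Fibrillar collagens, the main load-bearing proteins of dermis, were among the transcripts that gained most. Of 9 tested, 8 rose and 0 fell, with a median of 2.11, and their share of the summed RPKM was 3.01% ± 0.956 (SD, n = 3) in NS and 8.75% ± 0.816 (SD, n = 3) in 5dw. Col1a1 was at 4103, 1862 and 2677 in NS and 11637, 9468 and 11048 in 5dw (log2 fold change 1.97, SE 0.30). With Col3a1 and Col1a2 it made up 3 of the 5 DEGs with the largest gain of scaled RPKM. Col24a1 and Col27a1, which code for low-abundance fibrillar chains, rose by 3.31 and 2.31. The other collagens were split, with 9 higher and 8 lower of 23 tested (median -0.23, or -0.55 with 5 higher and 12 lower without scaling). Col12a1, a fibril-associated collagen, had the largest rise of them, from 6.89, 8.18 and 6.29 to 258, 163 and 242 (log2 fold change 4.84), and Col8a1 rose by 2.86. Col6a1, of the beaded-filament type VI collagen, was the most abundant and rose by 0.94, while Col4a4, a basement membrane chain, fell by 1.67.

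Enzymes and chaperones that modify, cleave and cross-link collagen were mostly higher in 5dw. Of 29 tested genes, 21 rose and 3 fell (median 1.36), and 27 of the 29 had groups without overlap, beside 56.8% of all tested genes. P4ha3, a collagen prolyl 4-hydroxylase subunit, was at 2.35, 3.88 and 5.15 in NS and 42.2, 49.7 and 59.2 in 5dw, and Plod2, the telopeptide lysyl hydroxylase, at 8.16, 19.3 and 17.0 and 91.1, 94.0 and 107. Their log2 fold changes were 3.61 and 2.76. Serpinh1, the gene of the collagen chaperone HSP47, was the most abundant member and rose by 1.14. The members that fell included Pcolce2, a procollagen C-proteinase enhancer, from 88.4, 72.3 and 73.7 to 4.04, 7.83 and 4.60, and the lysyl oxidase-like gene Loxl4, by 1.89.

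**Figure D3:**
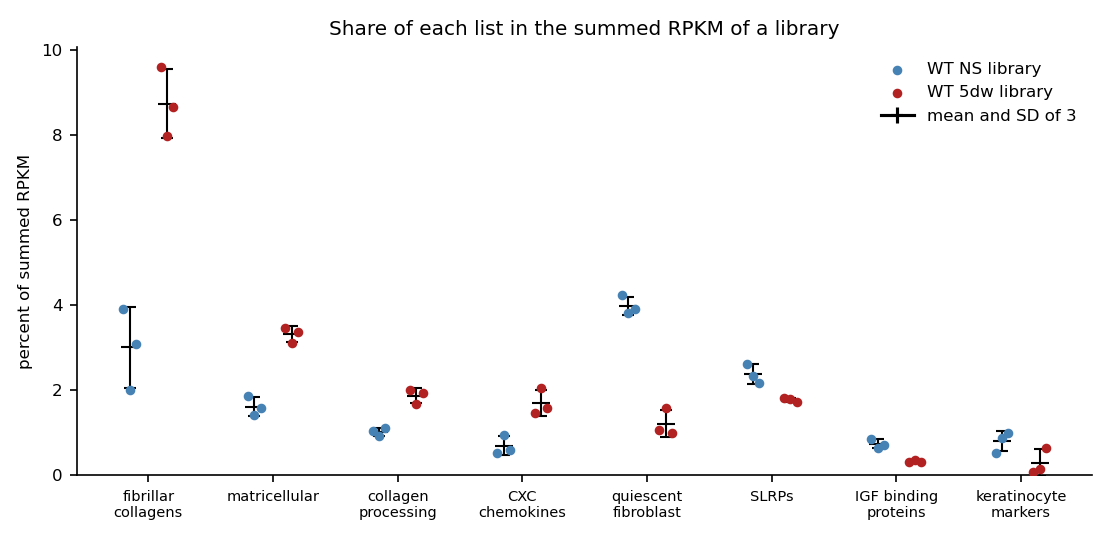
For 8 gene lists, points are the percent of the summed RPKM of each WT NS (blue) and WT 5dw (red) library, with the mean and SD of 3 in black. Fibrillar collagens rise from a mean of 3.01% to 8.75%, quiescent fibroblast genes fall from 3.98% to 1.20%, and the keratinocyte markers of the third 5dw library lie above those of the other two.

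The small leucine-rich proteoglycans, which bind collagen fibrils, did not move together, with 3 higher and 5 lower of 12 tested (median -0.35). Bgn (biglycan) was at 503, 305 and 306 in NS and 1928, 1555 and 2020 in 5dw, a log2 fold change of 2.34, whereas Dcn (decorin), the most abundant member, was at 4204, 3927 and 3172 and 2115, 2397 and 2041, a log2 fold change of -0.78 (limma adjusted p = 0.0137, but 0.0627 and 0.0734 without the first and the third 5dw library, and 0.208 with no filter on low values). Podnl1 (podocan-like 1) rose by 2.22. Ecm2 fell from 58.0, 41.7 and 41.2 to 6.44, 6.69 and 6.16, and Omd (osteomodulin) by 1.19.

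Matricellular genes, whose proteins signal from the matrix without building it, were mostly higher, with 11 higher and 4 lower of 18 tested (median 1.02). Besides Tnc and Spp1, Sparc, a collagen-binding glycoprotein gene and the most abundant member, rose from 2275, 1216 and 1419.8 to 6042, 5479 and 5956 (log2 fold change 1.88). Its relative Sparcl1 fell from 106, 102 and 96.5 to 22.1, 12.5 and 21.4 (log2 fold change -2.46), and Smoc1 by 1.73. Of 17 elastic fibre genes, 7 rose and 4 fell (median 0.42, or -0.03 with 6 higher and 5 lower without scaling). Ltbp2 and Fbn2 (fibrillin-2) rose by 2.70 and 2.37, Fbln2 (fibulin-2) by 1.79, and Ltbp1, a latent TGF-beta binding protein gene, fell by 1.39. Of 13 tested basement membrane genes, 4 rose and 3 fell (median 0.21, or -0.18 with 1 higher and 4 lower without scaling), at 30.8% and 23.1% not far from the 21.4% and 21.3% of all tested genes. Nid2 (nidogen-2) rose by 1.21 and Hspg2 (perlecan) by 0.80, although Hspg2 was not called without scaling (limma adjusted p = 0.113). The laminin chains Lamc3 and Lama2 fell by 3.82 and 1.77.

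Among hyaluronan genes, 4 rose and 3 fell of 12 tested (median 0.55), or 33.3% and 25.0%, beside 21.4% and 21.3% of all tested genes. Cemip, which takes part in hyaluronan depolymerisation, was at or under 0.0988 in NS and at 3.11, 2.85 and 3.49 in 5dw (log2 fold change 2.74), and Cd44, the main hyaluronan receptor, rose from 25.6, 52.2 and 25.0 to 145, 175 and 147. Hyal2, a hyaluronidase, fell by 0.90. The most abundant member, Tnfaip6 (TSG-6), was at 783, 1508 and 793 in NS and 1386, 1997 and 1415 in 5dw, with overlapping groups (log2 fold change 0.69, limma adjusted p = 0.0989, against 0.0264 with the replicate block and 0.011 without the second NS library).

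Matrix-degrading proteases and their inhibitors were more often higher than lower in 5dw. Of 11 tested matrix metalloproteinases, 8 rose and 2 fell (median 0.93), and of 12 protease inhibitors, 7 rose and 3 fell (median 1.04). Mmp13, a collagenase, was at 2.74, 0.803 and 0.233 in NS and 32.6, 13.9 and 25.5 in 5dw, and Mmp9, a gelatinase, at 3.04, 0.202 and 0.0841 and 21.1, 17.5 and 28.5, with the first NS library above the other two for both. Mmp2, the most abundant member, rose by 0.92 and Mmp27 fell by 2.03. Timp1, an inhibitor of metalloproteinases, was at 28.6, 57.7 and 28.4 in NS and 618, 800.5 and 956 in 5dw (log2 fold change 4.41, SE 0.30). Timp3 went the other way, from 92.4, 144 and 190 to 28.1, 36.9 and 21.2 (log2 fold change -2.26), as did Reck, a membrane-anchored inhibitor, by 1.91.

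Contractile and cytoskeletal genes give a cell traction on the matrix. Of 28 tested, 16 rose and 0 fell (median 0.68, or 0.23 with 13 higher and 4 lower without scaling). Acta2, the gene of alpha-smooth muscle actin that marks myofibroblasts, was at 16.6, 26.0 and 9.62 in NS and 303, 173 and 247 in 5dw (log2 fold change 3.82, SE 0.36), and Actn1, alpha-actinin-1, at 5.91, 6.11 and 5.02 and 50.0, 35.0 and 47.7. Acta2 is also a gene of pericytes and smooth muscle, of whose 10 markers 8 were tested, 1 was higher (2 with the replicate block) and 2 were lower, with a summed level of 51.6 to 101 in NS and 79.2 to 115 in 5dw. Integrins and fibronectin, which link cells to the matrix, had 4 higher and 3 lower of 16 tested (median 0.11, or -0.32 with 3 higher and 7 lower without scaling), shares of 25.0% and 18.8% that are near the 21.4% and 21.3% of all tested genes. Itga5, the fibronectin receptor chain, rose from 35.9, 53.5 and 32.8 to 114, 109.8 and 122, Itga7 rose by 1.02, and Itga8 fell by 2.21. Fn1 itself was abundant in both groups, at 542, 482 and 388 in NS and 537, 583 and 543 in 5dw, and its difference did not pass the test (log2 fold change 0.25, -0.21 without scaling, limma adjusted p = 0.256).

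Most cell cycle genes rose. Of 32 tested, 29 rose and 0 fell (median 1.47), and the summed level of the list was 63.0 to 85.2 in NS and 160 to 209 in 5dw. Pcna, the most abundant member, was at 22.7, 26.8 and 21.6 in NS and 28.8, 27.7 and 27.8 in 5dw. It did not pass the test (log2 fold change 0.25, -0.20 without scaling, limma adjusted p = 0.120). Cdk1, the mitotic kinase, was at 0.471, 0.886 and 0.692 in NS and 8.18, 5.13 and 5.37 in 5dw, and Cenpa, a centromeric histone, at 0.744, 0.857 and 0.356 and 6.66, 5.28 and 5.66. Replication-dependent histone genes showed the same direction, with 19 higher and 0 lower of 21 tested (median 1.51), among them Hist1h3d (2.58) and the most abundant, Hist1h2bc (2.40). These genes have near-identical copies and mostly lack a poly-A tail, so their levels in poly-A libraries are uncertain. The regulators of the G1 phase were split, with 4 higher and 5 lower of 12 tested (median -0.30, or -0.71 with 3 higher and 7 lower without scaling). Cdk4 rose by 0.91 and the inhibitor Cdkn1c from 17.6, 12.7 and 11.8 to 29.3, 41.5 and 27.7, while cyclin D1 (Ccnd1) fell from 4.36, 3.65 and 5.51 to 0.620, 0.853 and 1.52, Rb1 by 1.06 and the inhibitor Cdkn1a (p21), the most abundant, from 119, 132 and 109 to 48.2, 67.8 and 78.7.

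Glycolysis genes were mostly higher, with 14 higher and 2 lower of 18 tested (median 1.17). Slc16a3, the lactate exporter MCT4, was at 1.01, 0.736 and 1.03 in NS and 10.7, 11.4 and 13.6 in 5dw (log2 fold change 3.12), and Pkm, pyruvate kinase, at 82.4, 70.7 and 77.1 and 287, 241 and 318 (log2 fold change 1.86). Pfkfb4 was among those that fell, by 0.64. Of 14 hypoxia-response genes, 9 rose and 2 fell (median 0.87, or 0.44 with 7 higher and 3 lower without scaling). The oxygen-sensing transcription factor genes Epas1 (HIF-2 alpha) and Hif1a rose, Epas1 from 4.09, 3.81 and 3.67 to 27.8, 23.2 and 32.6 and Hif1a from 19.7, 33.4 and 22.6 to 86.9, 95.6 and 92.3.

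Nuclear-encoded subunits of oxidative phosphorylation, the mitochondrial respiratory chain, shifted by a small amount whose direction rested on the scaling. Of 49 tested, 21 rose and 0 fell (median 0.33, or -0.10 with 1 higher and 5 lower without scaling). The 42.9% higher stand beside 21.4% of all tested genes and 37.0% of the 2327 with the highest mean levels. Cox8a, a cytochrome c oxidase subunit, was called in both, at 41.0, 53.7 and 34.3 in NS and 115, 121 and 123 in 5dw, and Uqcrq rose by 0.67 with scaling and was not called without it. Of the 13 mitochondrially encoded genes, 1 rose and 1 fell (median -0.01, or -0.46 with 0 higher and 8 lower without scaling, and 0 higher and 1 lower with the replicate block). Cytosolic ribosomal protein genes also changed sides, with 11 higher and 4 lower of 79 tested (median 0.21, or -0.23 with 0 higher and 18 lower without scaling) in the limma fit. The scaled shares of 13.9% and 5.1% lie below the 21.4% and 21.3% of all tested genes.

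Chaperones and secretory genes of the endoplasmic reticulum, where collagen folds, were mostly higher, with 24 higher and 1 lower of 33 tested (median 0.71, or 0.25 with 10 higher and 4 lower without scaling). Kdelr3, a retrieval receptor for resident proteins, rose from 54.2, 47.1 and 53.4 to 139.9, 130 and 139, and Ssr2, a translocon-associated protein, from 46.4, 51.5 and 47.3 to 129, 113 and 133. Sdf2l1, a chaperone component, was the member that fell, from 15.7, 17.8 and 18.0 to 9.68, 9.16 and 7.59. Among amino acid synthesis genes and ATF4 targets, 12 rose and 2 fell of 22 tested (median 0.54, or 0.16 with 8 higher and 4 lower without scaling). Ddit4, an inhibitor of mTORC1 signalling, rose from 15.7, 8.18 and 8.90 to 57.0, 58.5 and 73.0, Chac1 rose by 1.87, and Cbs, of the transsulfuration pathway, fell by 1.68.

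Cholesterol synthesis genes were lower where called, and few fatty acid synthesis genes were called. Of 20 cholesterol synthesis genes, 0 rose and 8 fell (median -0.57, or -0.98 with 0 higher and 15 lower without scaling). Of 12 fatty acid synthesis genes, 1 rose and 2 fell (median -0.14, or -0.56 with 1 higher and 8 lower without scaling, and 1 higher and 4 lower with the replicate block). The scaled shares of 8.3% and 16.7% lie below the 21.4% and 21.3% of all tested genes. Scd1, stearoyl-CoA desaturase, fell from 66.0, 117 and 117 to 8.48, 9.54 and 8.54, Elovl6 fell by 2.78, and Elovl5 rose by 0.88. Adipogenic genes, which mark the fat-forming potential of dermal cells, had 0 higher and 8 lower among 16 tested (median -0.59, or -0.99 with 0 higher and 15 lower without scaling), with Cebpa, a master regulator of adipocytes, at 20.1, 20.3 and 25.0 in NS and 5.56, 7.06 and 8.42 in 5dw. Klf15 fell by 1.35, but was not called without the third NS library (limma adjusted p = 0.0538) or with quantile normalization (0.0855). Scd1 and Elovl6 are also genes of sebaceous cells, and of 9 adipocyte markers 2 were tested and 1, Cidea, which sebaceous cells also make, fell from 3.41, 7.62 and 7.26 to 0.0502, 0.0519 and 0.0523. The part of these cells was not tested.

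Immediate-early genes, which respond within minutes to stimulation and also to tissue dissociation, were abundant in both groups, with a summed level of 7807 to 11348.5 in NS and 9970.6 to 11972 in 5dw. Of 26 tested, 8 rose and 3 fell (median 0.29, or -0.16 with 4 higher and 8 lower without scaling, and 6 higher and 5 lower with the replicate block). With scaling 30.8% were higher and 11.5% lower, beside 21.4% and 21.3% of all tested genes. Fos was at 1518, 921 and 946 in NS and 1415, 1318 and 1579.6 in 5dw and did not pass the test (log2 fold change 0.38, -0.07 without scaling, limma adjusted p = 0.211, against 0.0357 without the first NS library). Ier3 rose from 186, 190 and 145 to 752, 948 and 865, Klf2 rose by 1.43, and Nr4a3 and Fosl2 fell by 1.21 and 0.96.

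Interferon-stimulated genes belong to the antiviral response. Of 33 tested, 9 rose and 2 fell (median 0.52, or 0.08 with 3 higher and 7 lower without scaling, and 14 higher and 2 lower with the replicate block). The share higher of 27.3% is not far from the 21.4% of all tested genes, and 6.1% were lower, beside 21.3%. Ifi44 was at 0.287, 0.420 and 0.274 in NS and 1.26, 3.23 and 2.05 in 5dw, with the second wound library highest. Gbp3, a guanylate-binding protein gene, showed the same order at 12.3, 25.7 and 18.0 in 5dw and a log2 fold change of 1.42. Irf9, a component of the ISGF3 transcription factor, fell by 0.78. Bst2 (tetherin), the most abundant, was at 71.9, 94.4 and 83.9 in NS and 103, 198 and 110 in 5dw and did not pass the test (log2 fold change 0.66, limma adjusted p = 0.0745, against 0.0261 with the replicate block). Of 13 genes of MHC class I antigen presentation, 1 rose and 2 fell (median -0.30, or -0.75 with 0 higher and 10 lower without scaling, and 0 higher and 2 lower with the replicate block). With scaling these are 7.7% and 15.4%, below the shares of all tested genes.

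Genes of quiescent and adventitial fibroblasts were mostly lower. Of 19 tested, 1 rose and 12 fell (median -0.91), and their share of the summed RPKM was 3.98% ± 0.221 (SD, n = 3) in NS and 1.20% ± 0.317 (SD, n = 3) in 5dw. Gsn, the actin-severing protein gelsolin, lost more scaled RPKM than any other DEG, from 4569, 4208 and 4085 to 359, 483 and 393 (log2 fold change -3.39, SE 0.17, limma adjusted p = 2.63e-05). Dpt (dermatopontin) and Clec3b (tetranectin), which were also among the 5 DEGs with the largest loss, fell by 0.99 and 1.35, and Abca8a, a lipid transporter gene, from 33.5, 28.8 and 24.6 to 2.42, 3.36 and 2.78. Mfap5, a microfibril protein gene of adventitial fibroblasts, was the member that rose, from 81.2, 75.8 and 58.3 to 149, 196 and 168.

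Markers of dermal fibroblast lineages were mostly lower, with 2 higher and 13 lower of 18 tested (median -1.31, or -1.67 with 1 higher and 15 lower without scaling). Apcdd1, a Wnt inhibitor of the upper dermis, was at 87.6, 54.0 and 92.6 in NS and 13.5, 11.1 and 11.1 in 5dw, and Itga8 is on this list too. Crabp1, a retinoic acid binding protein found in upper dermal fibroblasts, was an exception and rose from 21.7, 34.5 and 31.8 to 138, 81.5 and 118. Of 30 tested mesenchymal transcription factors, 10 rose and 6 fell (median -0.09, or -0.51 with 5 higher and 16 lower without scaling), or 33.3% and 20.0%, beside 21.4% and 21.3% of all tested genes. Sox11 and Runx1 rose, Sox11 from 0.407, 1.23 and 0.564 to 5.27, 5.61 and 5.95 and Runx1 from 4.70, 5.24 and 2.86 to 15.4, 17.0 and 16.6, whereas Foxo1 fell from 6.91, 4.93 and 6.38 to 1.10, 1.41 and 1.48 and Tcf21 by 0.97, which was not called with quantile normalization (limma adjusted p = 0.0637). Hox genes, which record body position, gave few calls, with 1 higher and 2 lower of 11 tested (median -0.21, or -0.56 with 1 higher and 6 lower without scaling, and 2 higher and 2 lower with the replicate block). The scaled shares of 9.1% and 18.2% lie below those of all tested genes.

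Several lists concerned hormones, daily rhythm and redox defence. Of 16 genes of the glucocorticoid axis, 4 rose and 8 fell (median -0.34). Sgk1, a kinase induced by glucocorticoids, rose from 42.7, 50.4 and 38.7 to 139.6, 157 and 176, and Lcn2 is also on that list, while Sult1a1, a sulfotransferase, fell by 2.50 and the transcription factor gene Zbtb16 by 2.43. Of 15 circadian clock genes, 1 rose and 6 fell (median -0.38, or -0.82 with 0 higher and 10 lower without scaling), with Per1 going from 11.4, 7.55 and 7.93 to 3.46, 2.80 and 3.15 and Hlf falling by 1.32. The time of day of the sampling was not given in the sources used here. Of 17 retinoid genes, 7 rose and 5 fell (median 0.23, or -0.07 with 5 higher and 7 lower without scaling). Stra6, the receptor for retinol-binding protein, and Rdh10, a retinol dehydrogenase, rose by 2.32 and 2.08. Cyp26b1, which degrades retinoic acid, fell from 39.5, 28.9 and 38.7 to 3.73, 4.75 and 8.05, and Rarres1 by 2.72. Among 26 oxidative stress defence genes, 9 rose and 4 fell (median 0.13, or -0.30 with 5 higher and 8 lower without scaling): Srxn1 (sulfiredoxin) and Gsr (glutathione reductase) rose by 1.57 and 1.34, and Gstm1, a glutathione S-transferase, fell from 141, 123 and 89.3 to 25.0, 30.9 and 25.6.

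**Figure D4:**
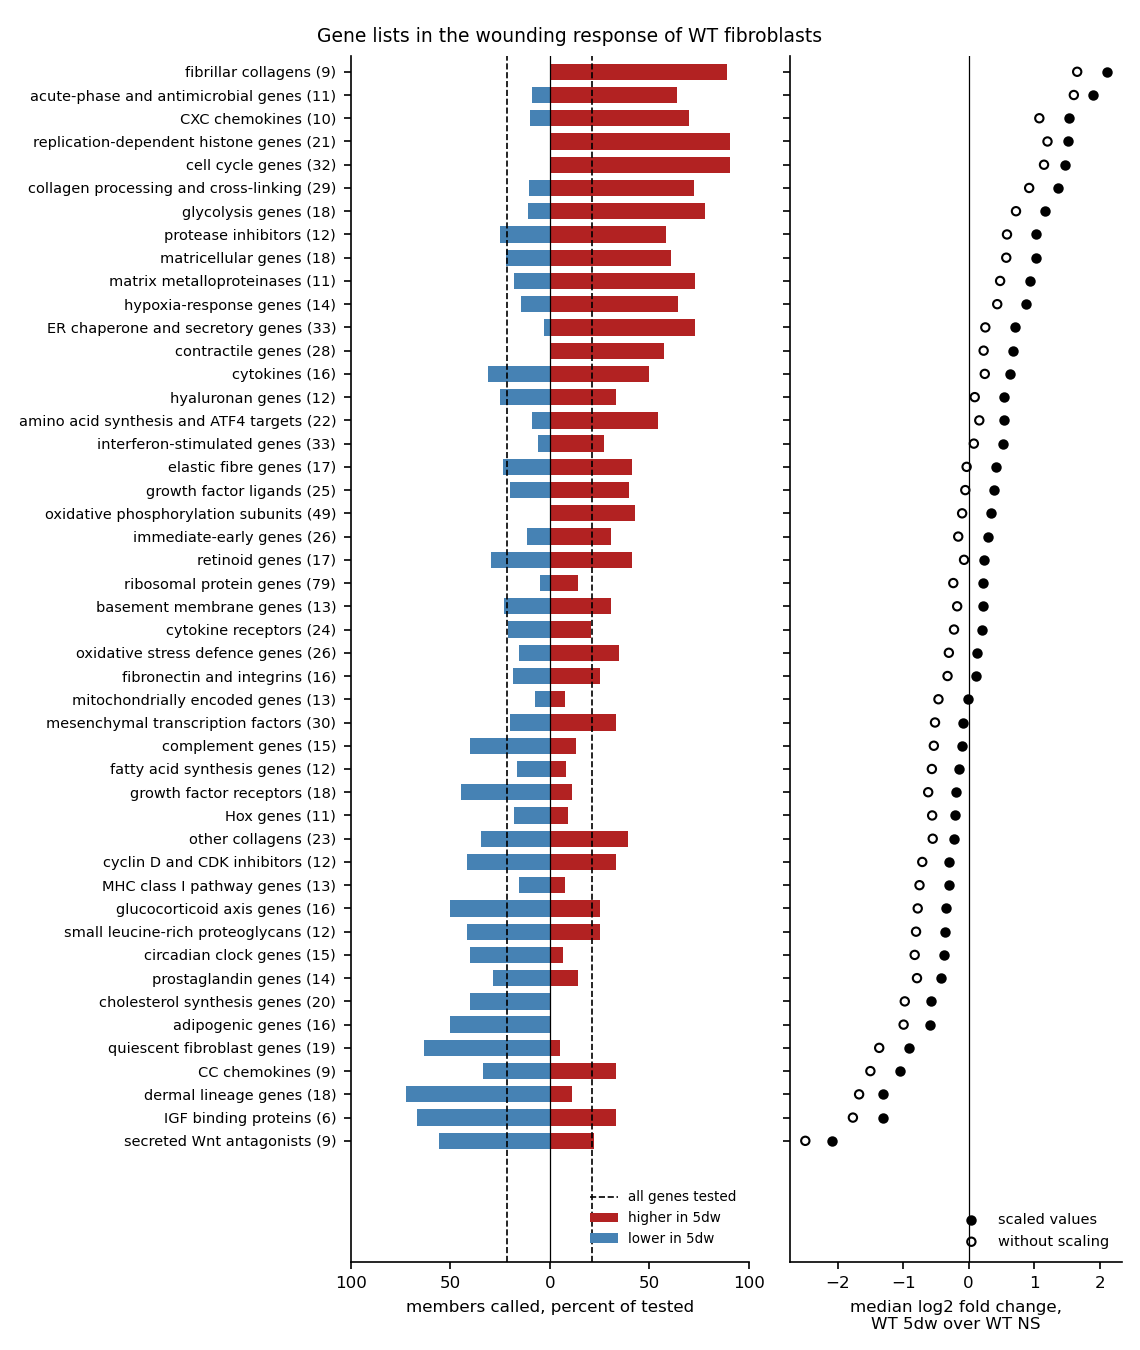
For the gene lists other than the cell type markers, the left panel gives, with the number of members tested in parentheses, the percent of tested members called higher (red, right) and lower (blue, left) in WT 5dw, with dashed lines at the 21.4% and 21.3% of all tested genes, and the right panel gives the median log2 fold change with scaled (filled) and unscaled (open) values. Fibrillar collagens lie at the top with a median of 2.11 and secreted Wnt antagonists at the bottom with -2.09. The dashed lines are not matched for the level of the listed genes.

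The same wound was sampled in Act littermates, which gave 5 libraries (3 Act NS and 2 Act 5dw) that share no sample with the WT comparison. Of the 2488 DEGs higher in WT 5dw, 98.2% had the same direction in Act 5dw against Act NS, and of the 2475 lower DEGs 98.6% did, beside 78.4% of the genes that were not called in WT. The direction also held for 98.5% of the 886 higher and 99.5% of the 946 lower DEGs with a log2 fold change of at least 1 in size. In the limma test of the difference itself, the interaction of wounding and genotype, 0 of 11633 genes passed an adjusted p of 0.05 and 424 had an unadjusted p under 0.05. Saa3, for example, had a log2 fold change of 9.64 in WT and 8.49 in Act, and Gsn of -3.39 and -3.65. Other genes named above, picked here after their values were seen, had estimates further apart that did not pass the interaction test: Ifi44 had 1.63 in WT and -0.25 in Act, Gbp3 1.42 and 0.04, Bst2 0.66 and -0.85, and Cox8a 1.49 and 0.41, with limma adjusted p of the interaction of 0.465, 0.798, 0.565 and 0.441.

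**Figure D5:**
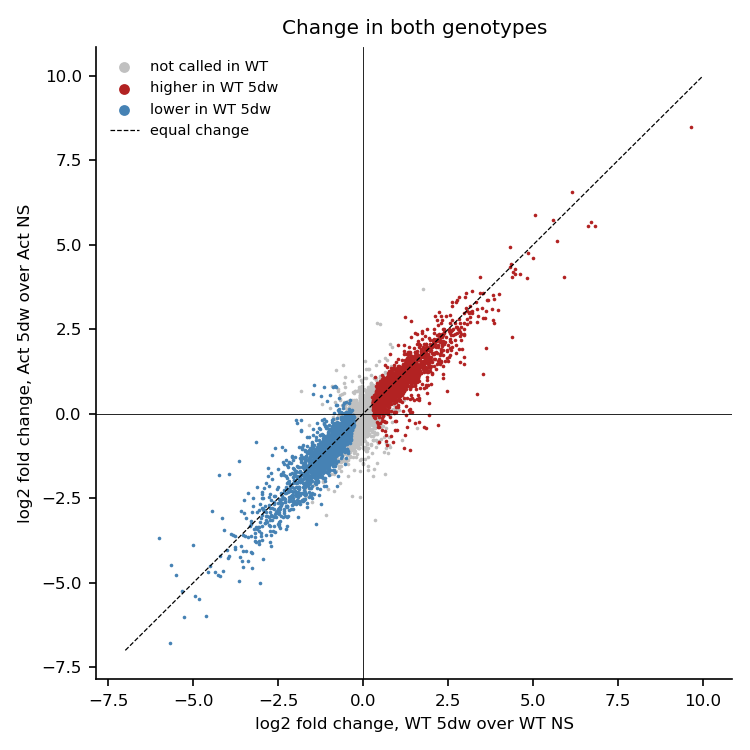
Each point is a gene, with the log2 fold change of 5dw over NS in WT on the x axis and in Act on the y axis, coloured by its call in WT, and the dashed line marks equal change. Most red and blue points lie near the line, with 98.2% of the higher and 98.6% of the lower DEGs in the same direction.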

How the data were processed

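RNA of sorted skin fibroblasts was sequenced as 100 bp reads, and the deposited table gives RPKM per gene, which the authors computed at the gene level before they compared groups with edgeR in the CLC Genomics Workbench. They also aligned the reads in that software, to GRCm38, and its settings for reads shared by similar genes are not given in the sources used here. Mapped totals were recovered from the steps of the RPKM values with GENCODE M21 exon lengths. Of the 45090 matched symbols, 85.9% came out as whole reads within 0.03 in all libraries. A value of 0 is whole by definition, and 21178 symbols were at 0 in all 11 libraries. Of the values under 200 reads, 78.2 to 79.5% per library were whole.

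Genes reaching 1 RPKM in 2 or more of the 6 libraries were scaled by median-ratio factors and tested as log2(scaled RPKM + 0.5) with limma 3.58.1 (R 4.3.3, trend, Benjamini-Hochberg adjustment, adjusted p under 0.05), because the files hold no counts, and the script was tested on simulated data. The interaction with genotype was fitted over all 11 libraries. Alternatives were other scalings, pseudocounts, filters and fits, limma-voom on the recovered reads, a replicate block and leaving out each library. Deviations of same-numbered NS and 5dw libraries correlated at 0.198, 0.126 and 0.123, and those of differently numbered libraries at -0.207 to 0.0819. The labels do not explain the numbers. The main fit did not pair the libraries, and the numbers entered only the replicate block.

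Named genes were the 10 with the highest and lowest fold changes among called genes without overlap (mean of at least 5 in the higher group, predicted genes left out), up to 2 highest, 2 lowest and the most abundant member of each list, the 5 largest gains and losses of scaled RPKM, and the sort antigens. The comparison, the lists and the named genes were chosen with earlier results of these data known. Promoter windows covered 73.8% of the tested genes, too few for a motif count, so none is given. Some genes that this rule names are not reported here.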

Additional observations from a re-analysis of the deposited data

How the results depend on the processing

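Without scaling, 1135 genes were called higher and 5696 lower, of which 501 and 1724 reached a log2 fold change of at least 1. With a filter of 5 RPKM, which left 6356 genes to test, 2865 were called, 1435 higher and 1430 lower, and 510 and 506 reached that size. The other planned settings kept these counts within 1.5 times, and limma-voom on the recovered reads called 4890 of 11263 genes. Leaving out each library in turn gave 3524 to 5283 DEGs, 1840 to 2662 higher and 1684 to 2621 lower, and 818 to 931 and 862 to 991 at that size. With the replicate block, 4906 genes were called, 2449 higher and 2457 lower. The block added calls for Bst2, Ccl2, Lyz2 and Tnfaip6 and changed no other call among the 178 named genes counted below. The interaction gave 0 to 1 gene over the fits that left out a library, the 1 without the second WT NS library, and 0 with the block.

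Of 178 tested genes named, not counting Pcna, 168 were called, 165 of them in every fit without a library and 162 under every setting that tested them. Of these 162, 132 were tested under every setting, since 32 of the 168 fell below the filter of 5 RPKM and 1 was not tested with limma-voom. None of the 168 changed sign under a setting that tested it. Over all 4963 DEGs, 258 had the other sign without scaling. Without scaling 3610 of the 4963 were still called, 1135 of the 2488 higher and all of the 2475 lower. Fn1 had a log2 fold change of -0.21 without scaling and -0.11 with quantile normalization, Fos of -0.069 without scaling, and Il6 of -0.21 and -0.16 under these 2 settings and of -0.014 to 0.65 when a library was left out. Cd68, not called, had -0.38 without scaling, -0.029 with the filter of 5 RPKM and -0.18 to 0.32 when a library was left out. With quantile normalization Fgfr1, Hspg2, Klf15 and Tcf21 were not called and Pdgfra was called lower, at -0.43. The cause of these changes was not tested. The depth recovered from the values was lower in NS than in 5dw, and by it the low values of NS are less precise.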

Other observations

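Long non-coding genes were also among the DEGs. Of 87 tested lincRNAs, 28 were higher and 14 lower in 5dw (32.2% and 16.1%, median log2 fold change 0.21), beside 21.4% and 21.3% of all tested genes. Of 63 antisense genes 16 were higher and 10 lower, at 25.4% and 15.9% not far from the shares of all tested genes. Among the 2253 tested genes with the shortest summed exon length, up to 2300 bases, 25.3% were higher and 18.4% lower in 5dw. Among the 2253 with the longest, from 7482 bases, 16.8% were higher and 24.4% lower.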
